A study of Mus musculus with 4 samples.

Results

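Genes of intraflagellar transport, its motors, the BBSome and the ciliary Arl GTPases were followed in single cells of the mouse trachea. The set was fixed by gene symbol, and all 37 symbols were found among the 22583 genes of the deposited count matrix: 6 of the IFT-A complex, 8 of the IFT-B1 core, 6 of the IFT-B2 peripheral complex, 4 of kinesin-2, 2 of dynein-2, 8 of the BBSome and 3 ciliary Arl genes. The question put to these genes was how their level in multiciliated cells compared with that in basal and secretory cells, which at most carry a primary cilium. The samples were tracheal cells of mice of 4 genotypes at 5 to 8 months of age: wild-type mice, bgh mice with a mutation in Spef2, Cfap54gt/gt mice with a gene-trapped Cfap54, and nm1054 mice, which lack Cfap221. The mutant lines, kept on the 129S6/SvEvTac background, model primary ciliary dyskinesia with defects of the central pair of microtubules, and cells of 6 tracheas (5 for bgh) were pooled into 1 library per genotype. The matrix marks its 4 libraries only by a number from 1 to 4, and nothing used here ties a number to a genotype. Values are therefore given for libraries 1 to 4, no genotype is compared, and with 1 library per genotype there is no replicate and no p-value.

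A cilium is built and kept at its length by trains that run along the microtubules of its shaft, the axoneme. Kinesin-2 carries the trains to the tip, where most axonemal subunits are delivered, and dynein-2 carries them back. IFT-B is needed mainly for the outward trip, IFT-A for the return trip and for bringing membrane proteins in, and the BBSome is an adaptor that rides the trains and takes signalling receptors out. Basal and secretory cells can bear a primary cilium, a single and usually immotile one, whereas a multiciliated airway cell carries a dense field of motile cilia that clear mucus.

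Promoters of cilium genes are known for the X-box, a motif bound by RFX transcription factors, of which Rfx2 and Rfx3 act in multiciliated cells. RefSeq promoter sequences of GRCm38.p6 (250 bases before to 50 after each start) were found for 33 of the 37 genes and were searched on both strands. The half-sites GTNNCC and GGNAAC with 2 bases between them occurred in 5 of the 33 (15.2%): Bbs1, Bbs4, Bbs7, Ift22 and Ift57. They occurred in 1.63% of the 16812 measured genes with a promoter entry, in 7 of 17 transition zone genes (41.2%) and in 2 of 21 axoneme genes (9.52%). A wider form, with NGNNAC as the second half-site, occurred in 7 of the 33 promoters (21.2%) against 5.59% of measured genes. The 6 letters GTTGCC, which can lie inside the X-box, occurred in 14 (42.4%) against 13.9%. The windows that lay wholly before the start are printed 5′ to 3′ along the gene's strand, with the X-box in capitals and 10 bases on either side, because they show how far the copies differ inside the motif. They lie at chr16:49699197-49699230 (plus strand), chr3:36613487-36613520 (minus strand), and chr5:136908107-136908140 and chr5:136908077-136908110 (plus strand).
Ift57: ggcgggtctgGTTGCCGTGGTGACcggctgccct
Bbs7: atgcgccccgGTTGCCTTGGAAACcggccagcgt
Ift22, copy nearer the start: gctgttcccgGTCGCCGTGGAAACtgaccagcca
Ift22, copy farther from the start: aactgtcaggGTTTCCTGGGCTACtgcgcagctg
The copy in Ift57 and the farther copy in Ift22 match the reverse complement of the letters searched. A match describes the letters in these windows and was not tested as a binding site.

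After filtering, 19471 cells remained (3692, 3830, 6746 and 5203 in libraries 1 to 4), and 48 barcode sequences among them occurred in more than 1 library. Cells were clustered with the 37 genes left out of the clustering, so that these genes did not form the classes, although genes that vary with them did. Ciliated-like cells numbered 4682 in 4 clusters (1177, 982, 1255 and 1268 by library), with 11 of 11 markers raised in 3 of the clusters and 10 of 11 in the smallest (296 cells). Basal-like cells were the 1360 cells of 1 cluster (218, 322, 401 and 419) with 9 of 9 markers, and secretory-like cells were 5992 cells in 3 clusters (1008, 1139, 2222 and 1623). Median depths were 2496, 3542.5 and 11061.5 unique molecular identifiers (UMIs) per cell, and the classes held 18167490, 5603517 and 75842744 UMIs in all. A further 2505 cells (12.9%) carried ciliated markers together with those of another lineage or mixed other lineages, and these were kept out of all 3 classes. The 11 ciliated markers summed to 9951 to 12330 CPM (UMIs of a gene per 1000000 UMIs of the class in a library) in ciliated-like cells, 82.7 to 159 CPM in basal-like cells and 119.8 to 196 CPM in secretory-like cells. Basal markers summed to 4835 to 7483 CPM in basal-like cells, 39.1 to 60.6 CPM in ciliated-like cells and 714.6 to 1182 CPM in secretory-like cells. Secretory markers summed to 6670 to 12410 CPM in ciliated-like, 7260 to 13920 CPM in basal-like and 377100 to 412700 CPM in secretory-like cells. The basal-like cluster was led by Apoe, Abi3bp and Defb1 and held 1856 UMIs of Dcn, which is also a fibroblast gene. Of the other fibroblast markers, Col1a2, Col3a1 and Lum were at 0 UMIs there and Col1a1 and Pdgfra at 1 UMI each. Another 2090 cells with 6 of 9 basal markers stayed unnamed, and results with them added are given with the alternatives.

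Nearly the whole gene set was higher in ciliated-like cells. Of the 37 genes, 34 (91.9%) were at least 2-fold higher than in basal-like cells in every library, and none was at least 2-fold lower in every library. By the same rule, 20.4% of the 11006 genes with at least 50 UMIs over the 2 classes were higher and 9.48% lower. Against secretory-like cells 36 of 37 genes (97.3%) were higher, where 29.7% of 11926 genes were higher and 3.19% lower. Ttc21b was the gene that missed in both comparisons, and Kif17 and Arl13b missed against basal-like cells. The median log2 ratio over basal-like cells, with 1 CPM added to each value, was 3.25 over the 37 genes and 0.34 over all genes, and in libraries 1 to 4 it was 3.20, 3.45, 3.29 and 3.02. Over secretory-like cells the medians were 3.62 and 0.78. In basal-like cells 8 of the genes had a library with fewer than 3 UMIs; with such libraries set to 3 UMIs, 34 genes were still called and the median was 3.14.

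These calls depended little on how libraries were scaled, but the background did. With factors from the trimmed mean of M-values (TMM), the median of all genes over secretory-like cells moved from 0.78 to -0.01, and the background there became 14.7% higher and 8.86% lower. In that scaling 32 of the 37 genes were still called over secretory-like cells, with a median of 3.01, and Ttc21b, Ift20, Kif3b, Kif17 and Bbip1 were not. With the 50 most abundant genes left out of the totals, the background was 16.1% higher and 8.81% lower and 34 genes were called. Ciliated-like cells of the lowest library exceeded basal-like cells of the highest library for 35 of 37 genes (all but Ttc21b and Kif17), and secretory-like cells for all 37. The same held for 40.3% and 62.9% of all genes.

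**Figure D1:**
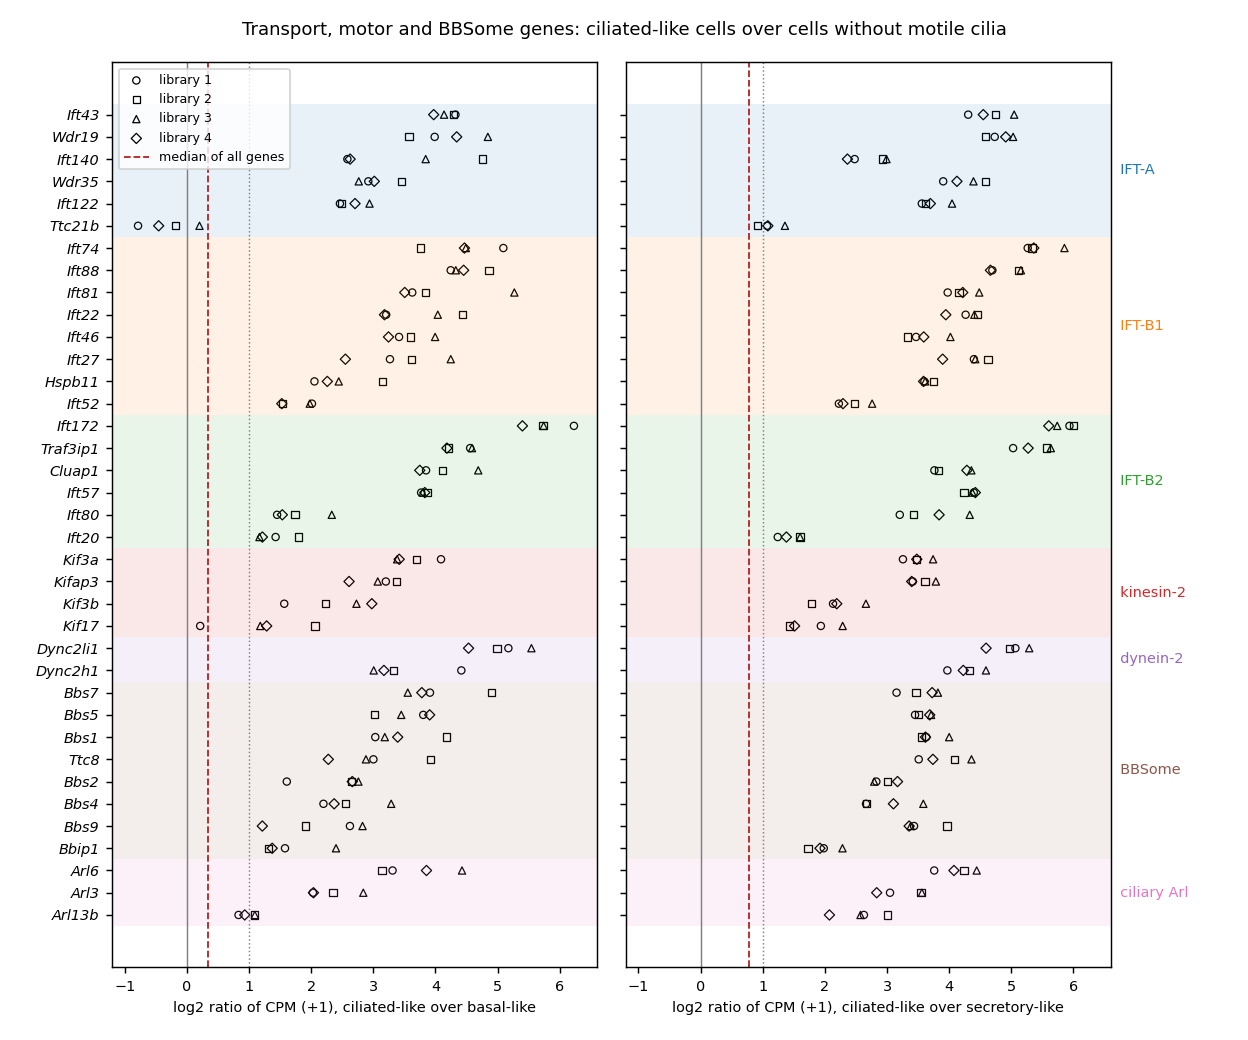
Log2 ratio of CPM (with 1 CPM added) in ciliated-like over basal-like cells (left) and over secretory-like cells (right) for each of the 37 genes, grouped by complex. Each symbol is 1 library, the dashed line is the median of all genes (0.34 and 0.78) and the dotted line marks a 2-fold difference; Ttc21b lies around 0 on the left while Ift172 and Dync2li1 have the highest medians there.

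Of the IFT-A genes, 5 of 6 were higher in ciliated-like than in basal-like cells, with a median log2 ratio of 3.10. Ift43, a small subunit of the complex, had the highest ratio: it read 468, 589, 564 and 604 CPM in ciliated-like cells, 22.5, 29.1, 31.1 and 37.6 CPM in basal-like cells and 22.7, 21.1, 16.1 and 24.9 CPM in secretory-like cells of libraries 1 to 4. Every ciliated-like value lay far above every value of the other classes, and the median log2 ratio over basal-like cells was 4.22 (3.97 to 4.32). Wdr35, another subunit, read 43.03, 67.1, 69.2 and 63.2 CPM in ciliated-like cells. It read 4.82, 5.22, 9.32 and 6.94 CPM in basal-like cells and 1.94, 1.83, 2.35 and 2.68 CPM in secretory-like cells. Ift122, a core subunit, read 31.1, 25.4, 36.5 and 31.9 CPM in ciliated-like cells. It read 4.82, 3.73, 3.88 and 4.05 CPM in basal-like cells and 1.72, 1.16, 1.27 and 1.54 CPM in secretory-like cells. For both genes the classes did not overlap, and the basal-like values lay above the secretory-like ones in every library. The remaining core subunits Wdr19 and Ift140 had median log2 ratios of 4.17 and 3.23; Ift140 had 0 UMIs in basal-like cells of library 2, where 3 UMIs would be 2.24 CPM.

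Ttc21b was the IFT-A gene that stood apart. It (ENSMUSG00000034848) encodes IFT139, a large peripheral subunit, and it was sparse in every class. Ciliated-like cells held 19, 10, 14 and 20 UMIs in libraries 1 to 4 (2.84, 3.18, 3.73 and 4.37 CPM) and basal-like cells 7, 5, 4 and 11 UMIs (5.62, 3.73, 3.11 and 6.36 CPM). The 95% Poisson intervals overlapped in every library, for example 1.71 to 4.43 against 2.26 to 11.6 CPM in library 1, so no difference was detectable at this depth; the median log2 ratio was -0.32 (-0.79 to 0.20). Secretory-like cells read 0.832, 1.22, 0.845 and 1.54 CPM, below the ciliated-like values in every library, with a median log2 ratio of 1.07 (0.91 to 1.36).

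The paralog Ttc21a (ENSMUSG00000032514), which was looked up after the values of Ttc21b had been seen, showed another pattern. It held 450, 262, 294 and 458 UMIs in ciliated-like cells (67.2, 83.3, 78.3 and 100.2 CPM) and 1, 0, 0 and 2 UMIs in basal-like cells. Pooled over libraries, 1464 UMIs stood against 3, a CPM ratio of 150.5 with a 95% interval of 51.4 to 731 for counting error. Secretory-like cells held 7, 2, 4 and 7 UMIs. In ciliated-like cells the paralog thus gave 1464 UMIs where Ttc21b gave 63.

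**Figure D2:**
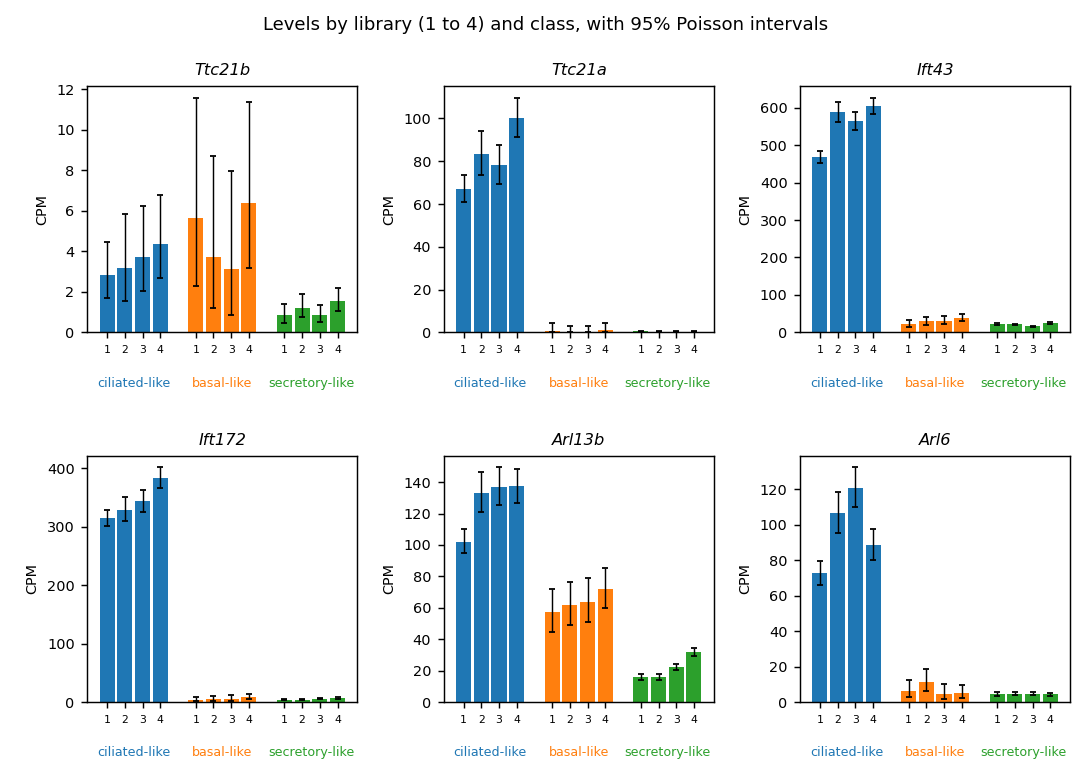
CPM by library (1 to 4) in ciliated-like, basal-like and secretory-like cells for Ttc21b, its paralog Ttc21a, and for the genes with the highest and an intermediate or low ratio; bars start at 0 and error bars are 95% Poisson intervals for counting error. Ttc21b intervals overlap between ciliated-like and basal-like cells, whereas Ttc21a, Ift43, Ift172 and Arl6 are near 0 outside ciliated-like cells on these axes and Arl13b keeps about 50% of its level in basal-like cells.

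The IFT-B1 core, which holds the outward train together, was higher throughout: 8 of 8 genes were called against both other classes, with median log2 ratios of 3.56 over basal-like and 4.26 over secretory-like cells. Ift74, which with Ift81 forms a tubulin-binding module, had the highest ratio and read 225, 214, 231 and 277 CPM in ciliated-like cells, 5.62, 14.9, 9.32 and 11.6 CPM in basal-like cells and 4.88, 4.33, 3.005 and 5.76 CPM in secretory-like cells. Ift88, the subunit whose hypomorphic mutation gave the Oak Ridge polycystic kidney mouse, read 139.8, 158, 175 and 160.3 CPM in ciliated-like cells, 6.42, 4.47, 7.77 and 6.36 CPM in basal-like cells and 4.44, 3.603, 3.94 and 5.36 CPM in secretory-like cells. Both were more than 10-fold above their comparators in every library. Ift22, a small GTPase-like subunit whose promoter holds 2 of the X-box copies printed above, read 112, 182, 181 and 139 CPM in ciliated-like cells, 11.2, 7.46, 10.1 and 14.4 CPM in basal-like cells and 4.88, 7.33, 7.61 and 8.09 CPM in secretory-like cells. Ift46, which links outer dynein arms to the train, read 95.3, 92.2, 126 and 118 CPM in ciliated-like cells, 8.03, 6.71, 6.99 and 11.6 CPM in basal-like cells and 7.71, 8.304, 6.86 and 8.89 CPM in secretory-like cells. Ift81 had a median log2 ratio of 3.74 (3.51 to 5.27).

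Ift27 and its partner Hspb11 (IFT25) form a pair that is needed to take the BBSome and signalling proteins out of the cilium. Ift27 read 132, 149, 136 and 168 CPM in ciliated-like cells, 12.8, 11.2, 6.22 and 27.8 CPM in basal-like cells and 5.33, 5.07, 5.401 and 10.3 CPM in secretory-like cells. Hspb11 read 146, 205, 203 and 195 CPM in ciliated-like cells, 34.5, 22.4, 36.5 and 39.9 CPM in basal-like cells and 11.2, 14.4, 15.7 and 15.3 CPM in secretory-like cells. Over basal-like cells the median log2 ratio was 3.44 for Ift27 (2.55 to 4.25 over libraries) and 2.35 for Hspb11 (2.05 to 3.14), ranges that overlap, and the difference between the genes was not tested. Ift52, a scaffold of the core, had the lowest ratio of IFT-B1 and read 38.7, 45.1, 51.9 and 56.9 CPM in ciliated-like cells, 8.83, 14.9, 12.4 and 19.1 CPM in basal-like cells and 7.49, 7.27, 6.81 and 10.8 CPM in secretory-like cells. Its median log2 ratio over basal-like cells was 1.76 (1.53 to 2.01), and the groups still did not overlap.

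IFT-B2 held both one of the steepest and one of the flattest genes of the set. Ift172, the largest IFT-B subunit, read 315, 329, 343 and 383 CPM in ciliated-like cells, 3.21, 5.22, 5.44 and 8.09 CPM in basal-like cells and 4.16, 4.15, 5.45 and 6.9 CPM in secretory-like cells. Its median log2 ratio over basal-like cells, 5.74 (5.40 to 6.23), was the highest of the 37, and its basal-like level rested on 4, 7, 7 and 14 UMIs. Ift20, which works at the Golgi as well as in the cilium, read 142, 192, 186 and 186 CPM in ciliated-like cells, 52.2, 54.4, 82.4 and 79.8 CPM in basal-like cells and 59.5, 62.6, 60.8 and 71.04 CPM in secretory-like cells. It had the lowest ratio of its complex, 1.32 (1.17 to 1.80), and 39.8% of its ciliated-like level was found in basal-like cells. Its call was lost in TMM scaling against both classes, and against basal-like cells with a mitochondrial limit of 10% or with only the ciliated-like clusters of at least 3000 UMIs.

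Between these ends lay the other IFT-B2 subunits. Traf3ip1 (IFT54), which binds microtubules, read 193, 238, 285 and 291 CPM in ciliated-like cells, 7.23, 11.9, 10.9 and 15.03 CPM in basal-like cells and 4.94, 4.03, 4.74 and 6.55 CPM in secretory-like cells. Ift57, which carries the X-box printed above, read 254, 276, 315 and 293 CPM in ciliated-like cells, 17.7, 17.9, 21.8 and 19.6 CPM in basal-like cells and 11.1, 13.7, 14.2 and 12.7 CPM in secretory-like cells. Its log2 ratio over basal-like cells spanned only 3.77 to 3.87 over the 4 libraries. Ift80, known from skeletal ciliopathies, read 21.5, 22.2, 31.4 and 25.4 CPM in ciliated-like cells, 7.23, 5.96, 5.44 and 8.09 CPM in basal-like cells and 1.44, 1.16, 0.611 and 0.844 CPM in secretory-like cells. Ift80 stood higher in basal-like than in secretory-like cells in every library, and its log2 ratio was 1.64 over the first and 3.63 over the second. Cluap1 (IFT38) had a median log2 ratio of 3.98 (3.75 to 4.69) over basal-like cells.

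Kinesin-2 genes had a median log2 ratio of 2.81 over basal-like cells, and 3 of 4 were called. Kif3a, a motor subunit of the heterotrimer, read 166, 156, 139 and 158 CPM in ciliated-like cells, 8.83, 11.2, 12.4 and 13.9 CPM in basal-like cells and 16.5, 13.1, 9.49 and 13.2 CPM in secretory-like cells. Kifap3, which joins the motor to its cargo, read 119, 109.7, 105 and 96.9 CPM in ciliated-like cells, 12.04, 9.69, 11.7 and 15.03 CPM in basal-like cells and 10.3, 8.06, 6.71 and 8.29 CPM in secretory-like cells. Kif3b, the second motor subunit, read 37.6, 35.3, 46.9 and 38.7 CPM in ciliated-like cells, 12.04, 6.71, 6.22 and 4.05 CPM in basal-like cells and 7.82, 9.53, 6.58 and 7.69 CPM in secretory-like cells. For these 3 the ciliated-like level lay above both other classes in every library, although kinesin-2 also moves cargo outside cilia. Kif17, the homodimeric kinesin-2, was sparse: ciliated-like cells held 26, 10, 18 and 13 UMIs (3.88, 3.18, 4.79 and 2.84 CPM), basal-like cells 4, 0, 2 and 1 UMIs and secretory-like cells 5, 9, 4 and 7 UMIs. In library 1 its values were 3.88 and 3.21 CPM in ciliated-like and basal-like cells with overlapping intervals. Library 1 was the only library under 2-fold, so the call over basal-like cells without it follows from leaving it out. Without library 1, Kif17 rested on 0, 2 and 1 UMIs in basal-like cells. Over secretory-like cells its median log2 ratio was 1.72 (1.43 to 2.29).

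Both dynein-2 genes of the set were called against both classes. Dync2li1, the light intermediate chain, read 209, 221, 227 and 249.7 CPM in ciliated-like cells, 4.82, 5.96, 3.88 and 9.83 CPM in basal-like cells and 5.27, 6.04, 4.84 and 9.38 CPM in secretory-like cells. Its median log2 ratio over basal-like cells was 5.08 (4.53 to 5.54). Dync2h1, the heavy chain that carries the motor domain, read 54.7, 83.9, 82 and 80.9 CPM in ciliated-like cells, 1.61, 7.46, 9.32 and 8.09 CPM in basal-like cells and 2.55, 3.24, 2.44 and 3.38 CPM in secretory-like cells, with a median log2 ratio of 3.25 (3.01 to 4.42). In library 1 both the ciliated-like and the basal-like level of Dync2h1 were the lowest of the 4, and its basal-like level there rested on 2 UMIs. The intermediate chains Dync2i1 and Dync2i2, listed outside the 37 genes, had median log2 ratios of 5.02 and 3.94 over basal-like cells.

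All 8 BBSome genes were called against both classes, with median log2 ratios of 2.80 over basal-like and 3.50 over secretory-like cells. Bbs7 had the highest ratio and read 26.1, 28.9, 29.02 and 28.6 CPM in ciliated-like cells, 0.803, 0, 1.55 and 1.16 CPM in basal-like cells and 2.05, 1.71, 1.13 and 1.24 CPM in secretory-like cells. Its basal-like level rested on 1, 0, 2 and 2 UMIs. Bbs5, which binds phosphoinositides, read 35.4, 43.5, 35.4 and 40.02 CPM in ciliated-like cells, 1.61, 4.47, 2.33 and 1.73 CPM in basal-like cells and 2.33, 2.93, 1.78 and 2.18 CPM in secretory-like cells. Bbs2 read 16.7, 19.4, 21.6 and 23.6 CPM in ciliated-like cells, 4.82, 2.24, 2.33 and 2.89 CPM in basal-like cells and 1.498, 1.53, 2.25 and 1.74 CPM in secretory-like cells. Bbs2 and Bbs7 share a subcomplex, and for both the ciliated-like libraries lay above all others. Bbs4, which binds the centriolar satellite protein PCM1, read 25.7, 26.7, 39.1 and 31.1 CPM in ciliated-like cells, 4.82, 3.73, 3.11 and 5.203 CPM in basal-like cells and 3.22, 3.36, 2.35 and 2.73 CPM in secretory-like cells. Bbs9, a scaffold of the complex, read 20.02, 22.2, 22.6 and 21.4 CPM in ciliated-like cells, 2.41, 5.22, 2.33 and 8.67 CPM in basal-like cells and 0.943, 0.488, 1.27 and 1.19 CPM in secretory-like cells. Its call over basal-like cells was lost with 5 CPM added to each value and with only the ciliated-like clusters of at least 3000 UMIs. Bbs1, the subunit that Arl6 recruits, had a median log2 ratio of 3.29. Bbs1 had 0 UMIs in basal-like cells of library 2.

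Bbip1 (BBIP10), the smallest subunit, had the lowest ratio of the BBSome and read 73.96, 64.2, 74.01 and 71.95 CPM in ciliated-like cells, 24.1, 25.4, 13.2 and 27.2 CPM in basal-like cells and 17.97, 18.7, 14.4 and 18.3 CPM in secretory-like cells. Its median log2 ratio over basal-like cells was 1.48 (1.31 to 2.40). Against secretory-like cells its call was lost in TMM scaling and without the 50 most abundant genes in the totals. Ttc8 (BBS8) read 19.9, 36.9, 40.7 and 26.2 CPM in ciliated-like cells, 1.61, 1.49, 4.66 and 4.62 CPM in basal-like cells and 0.832, 1.22, 1.03 and 1.04 CPM in secretory-like cells. It was the 1 gene that differed at least 2-fold between libraries over all ciliated-like cells.

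The Arl GTPases had the lowest median log2 ratio of the complexes over basal-like cells (2.19), and a median of 3.30 over secretory-like cells. Arl6 (BBS3), which recruits the BBSome to membranes, read 72.6, 106, 121 and 88.8 CPM in ciliated-like cells, 6.42, 11.2, 4.66 and 5.203 CPM in basal-like cells and 4.44, 4.702, 4.602 and 4.32 CPM in secretory-like cells. Arl3, which releases lipid-modified cargo inside the cilium, read 196, 248, 256 and 214 CPM in ciliated-like cells, 47.4, 47.7, 34.97 and 51.5 CPM in basal-like cells and 22.9, 20.3, 20.8 and 29.2 CPM in secretory-like cells. Arl13b, which activates Arl3 and marks ciliary membranes, read 102, 133, 137 and 138 CPM in ciliated-like cells, 57.01, 61.9, 63.7 and 71.7 CPM in basal-like cells and 15.7, 15.8, 22.2 and 31.9 CPM in secretory-like cells. The classes were ordered ciliated-like, basal-like, secretory-like for Arl3 and Arl13b in every library, with no overlap. Arl13b kept 46.5% to 55.8% of its ciliated-like level in basal-like cells, which put its log2 ratio at 1.01 (0.83 to 1.09) and under 2-fold in libraries 1 and 4. Over secretory-like cells its ratio was 2.60.

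Droplets of basal-like and secretory-like cells can hold RNA released from ciliated cells, which would leave all ciliated genes at 1 common share of their ciliated-like level. As a yardstick, 24 axoneme genes of motile cilia (dynein arms, radial spokes, central pair, tektins) were summed. Unlike the 37 genes, they could take part in the clustering. Basal-like cells held 0.521%, 0.646%, 0.590% and 0.712% of the ciliated-like level of these genes in libraries 1 to 4, and secretory-like cells 0.656%, 0.477%, 0.547% and 0.612%. For 26 of the 37 genes (70.3%) the lower bound of the basal-like level lay above that share in every library, and for 37 of 37 in secretory-like cells. Most genes of any kind do so, 84.8% and 91.5% of all genes. The count in secretory-like cells rests on this yardstick: the 11 ciliated markers, used in its place after the values were seen, left higher shares of 0.831% to 1.29% in basal-like and 1.01% to 1.65% in secretory-like cells. Against those shares 25 genes lay above in basal-like cells and 30 in secretory-like cells (83.7% and 90.1% of all genes), where Wdr19, Ift74, Ift80, Ift172, Traf3ip1, Kif17 and Bbs9 did not. By the axoneme share, among genes called higher in ciliated-like cells, 24 of 34 (70.6%) did so in basal-like cells, against 53.1% of all genes called higher. In secretory-like cells the latter share was 82% of all genes called higher.

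The share left in basal-like cells differed widely between genes of 1 train. It was 1.02% to 2.11% for Ift172 and 1.71% to 3.94% for Dync2li1, but 28.4% to 44.2% for Ift20, 17.9% to 39.5% for Bbip1 and 46.5% to 55.8% for Arl13b. The 11 genes that were not above the axoneme share in every library were Ift140, Wdr19, Ift81, Ift172, Cluap1, Kif17, Dync2h1, Dync2li1, Bbs1, Bbs7 and Ttc8. Their basal-like UMIs ran from 5 for Bbs7 to 40 for Ift81, and genes above the share could hold as few as Bbs5 with 14. The level of the 11 genes in these cells was not separable from the axoneme share in at least 1 library. With cells thinned to 1000 UMIs, 10 of 37 genes in basal-like and 17 of 37 in secretory-like cells lay above it in every library. The share of all genes was not counted with thinned cells, so these numbers have no background beside them. A gene outside these counts is not shown to be absent from the class. All 24 axoneme genes were called higher over basal-like cells, with median log2 ratios from 4.95 for Dnah1 to 7.64 for Dnali1. Of the 37 genes, Ift172 and Dync2li1 reached that range, but its lower end is not firm. Dnah1 rested on 2 UMIs in basal-like cells against 724 in ciliated-like cells, a pooled CPM ratio of 111.7 without the added 1 CPM. The shares above for Ift172 and Dync2li1 were higher than the 0.521% to 0.712% of the summed axoneme genes. In basal-like cells 22 of the 24 axoneme genes had a library under 3 UMIs. With such libraries set to 3 UMIs the axoneme median was 5.47 in place of 6.65. How many of the 37 genes reached the range with that floor was not counted.

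**Figure D3:**
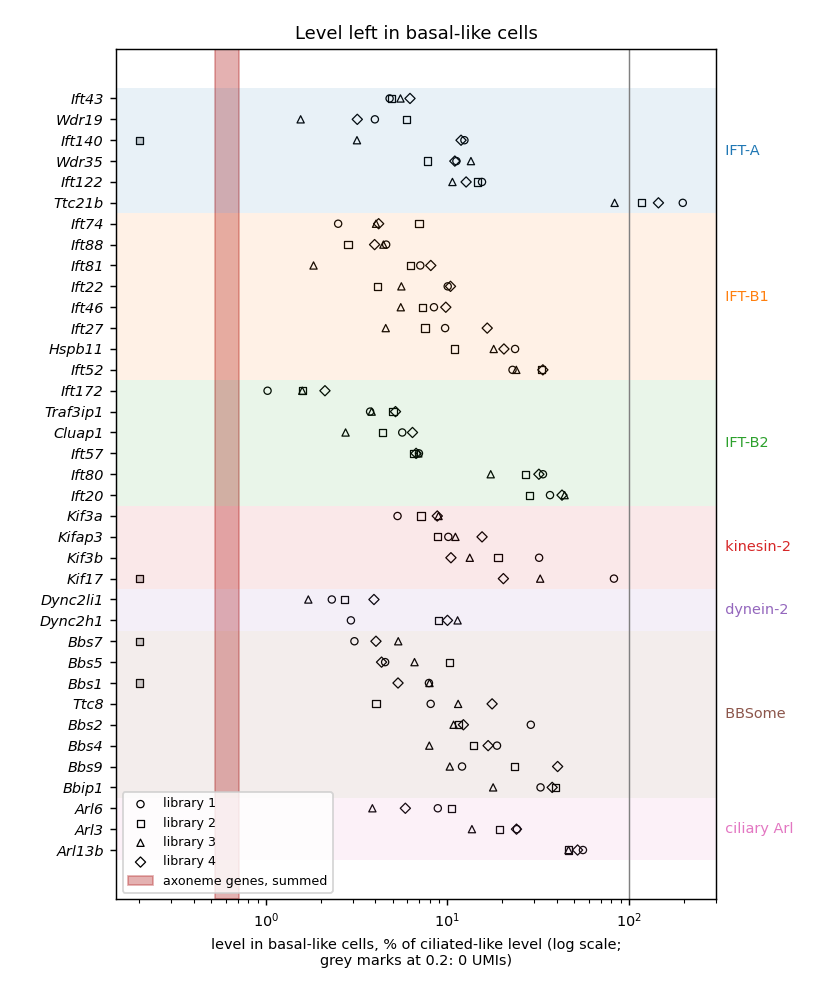
Level of each of the 37 genes in basal-like cells as a percent of its level in ciliated-like cells, on a log axis, with 1 symbol per library; grey symbols at 0.2 stand for 0 UMIs and the vertical line marks 100%. The shaded band is the range over libraries of the same percent for the 24 summed axoneme genes (0.521% to 0.712%); Ttc21b lies around 100%, Arl13b near 50% and Ift172 nearest to the band.

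Between the classes without motile cilia, most of the 37 genes overlapped over libraries. The lowest basal-like library lay above the highest secretory-like library for 11 of 36 genes with at least 50 UMIs: Ift122, Ttc21b, Wdr35, Hspb11, Ift57, Ift80, Traf3ip1, Bbs9, Ttc8, Arl3 and Arl13b. The reverse order held for 0 of 36. Over all genes these shares were 44.8% and 9.1%, so the count of 11 is below the background. Secretory markers summed to 377100 to 412700 CPM in secretory-like cells, which lowers the CPM of every other gene there, and the part of this in the order was not tested. Summed over the 37 genes, the level was 3782, 4405, 4638 and 4621 CPM in ciliated-like cells, 422, 437, 449 and 569 CPM in basal-like cells and 282, 286, 269 and 344 CPM in secretory-like cells. In the other named classes, pooled over libraries, the sum was 409.7 CPM in hillock-like cells (1987 cells), 424 CPM in ionocyte-like cells (44), 540.1 CPM in proliferating-like cells (135) and 717 CPM in T cell-like cells (41). In the same order the 24 axoneme genes summed to 30.8, 26.8, 71.6 and 121 CPM there. Both hillock-like clusters (1476 and 511 cells) also had basal markers raised, 7 of 9 and 6 of 9, so that class is not distinct from basal cells in its markers. The T cell-like class held only 90602 UMIs in all. Its axoneme UMIs came from library 3 alone (322.5 CPM, with 0 CPM in libraries 1, 2 and 4).

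Further genes of the same machinery gave a similar picture with exceptions. Of other train, motor and BBSome-associated genes, 20 of 25 with enough UMIs were higher over basal-like cells and 21 of 26 over secretory-like cells, with medians of 2.33 and 3.03. The highest were Mak, a kinase that limits cilium length (5.81), and Ttc30b, an IFT-B subunit (1 UMI in basal-like cells against 707 in ciliated-like cells). The lowest were Rab10 (-0.67), a GTPase of general membrane traffic, and Cilk1 (-0.51), the kinase related to Mak. Cilk1 read 14.6, 10.2, 13.3 and 10.7 CPM in ciliated-like and 15.3, 21.6, 13.2 and 21.97 CPM in basal-like cells, and Mak 131, 137, 182 and 142 and 0.803, 2.98, 0.777 and 2.31 CPM. The chaperonin-like genes that assemble the BBSome, Bbs10, Bbs12 and Mkks, were not called in either comparison; Bbs10 and Bbs12 had under 50 UMIs over basal-like and ciliated-like cells, and Mkks had a median log2 ratio of -0.11.

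Transition zone genes, which gate the base of the cilium, were higher for 18 of 20 over basal-like and 19 of 20 over secretory-like cells, with medians of 2.98 and 3.82. The highest were Tmem107 (4.46) and Tctn2 (4.15) and the lowest Invs (0.37) and Iqcb1 (0.74). Genes of signalling through primary cilia gave other counts: 0 of 9 with enough UMIs were higher in either comparison, 3 of 9 were lower than in basal-like cells and 0 of 9 lower than in secretory-like cells. Smo, the transducer of Hedgehog signals, read 2.09, 2.54, 4.26 and 3.94 CPM in ciliated-like, 25.7, 23.9, 12.4 and 18.5 CPM in basal-like and 6.77, 6.53, 6.81 and 7.198 CPM in secretory-like cells. Gli3, a Hedgehog transcription factor, read 4.78, 1.91, 4.79 and 4.16, 20.9, 23.9, 21.8 and 25.4 and 0.888, 0.733, 1.55 and 1.04 CPM. Evc2, a modulator of Smo, was the third, with a median log2 ratio of -1.62 over basal-like and 0.31 over secretory-like cells. The highest of this list were Gpr161 (0.95) and Pkd1 (0.17), neither of them called. Smo, Gli3 and Evc2 were thus at least 2-fold lower than in basal-like cells in every library, while against secretory-like cells none of the 3 was called.

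Immediate early and heat shock genes, which respond to tissue digestion, were higher for 0 of 16 over basal-like and 11 of 16 over secretory-like cells. They summed to 20840 to 25060 CPM in ciliated-like, 15650 to 21460 CPM in basal-like and 6440 to 9051 CPM in secretory-like cells. Their part in the ratios of the 37 genes was not tested. The median mitochondrial share was 3.67%, 5.49% and 3.93% in the 3 classes.

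Between libraries, ciliated-like cells held similar levels of the 37 genes. The ratio of the highest to the lowest library ran from 1.11 for Bbs7 to 2.05 for Ttc8, with a median of 1.35. At least 1.5-fold differences were seen for 10 genes, and the share of all genes at that limit was not counted. Over the whole class Ttc8 alone was at least 2-fold apart with intervals that did not overlap. It read 19.9, 36.9, 40.7 and 26.2 CPM in libraries 1 to 4, with 95% intervals of 16.6 to 23.6 CPM in library 1 and 34.5 to 47.7 CPM in library 3. By that rule 7.27% of 10330 genes were apart. Under TMM scaling, without the 50 most abundant genes, with cells gated on marker shares, without library 1 or without library 3 the count was 0, and with thinned cells it was 3. Within the deepest ciliated-like cluster alone, 3 genes were apart: Ttc8 (2.30-fold), Ift80 (2.07-fold) and Bbs1 (2.03-fold). The share of all genes was not counted within that cluster.

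Library 1 was the lowest of the 4 for 26 of 37 genes, and it had the highest median depth in ciliated-like cells (3741 UMIs against 2043 to 2411). The 24 axoneme genes followed the same order, at 3389 CPM in library 1 and 4267, 4609 and 4382 CPM in the others. The deepest ciliated-like cluster supplied 62.7%, 45%, 62.6% and 54.1% of the ciliated-like UMIs. Within that cluster library 1 was still the lowest for 22 genes, and the 37 genes summed to 3174, 3490, 4048 and 4155 CPM. The share of all genes that were lowest in library 1 was not counted, so 26 and 22 are not read as particular to this set. Over the whole class the other 11 genes were lowest in another library: all 4 kinesin-2 genes and 7 from IFT-A, IFT-B and the BBSome. Kif3a (166, 156, 139 and 158 CPM) and Kifap3 (119, 109.7, 105 and 96.9 CPM) were highest in library 1. Within the deepest cluster Kif3a was not (216, 232, 169.6 and 216 CPM), and Kifap3 differed by 1.04-fold at most between libraries there (124, 120.1, 122 and 119 CPM). Genotype and library cannot be told apart here, and no library is named by genotype.

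**Figure D4:**
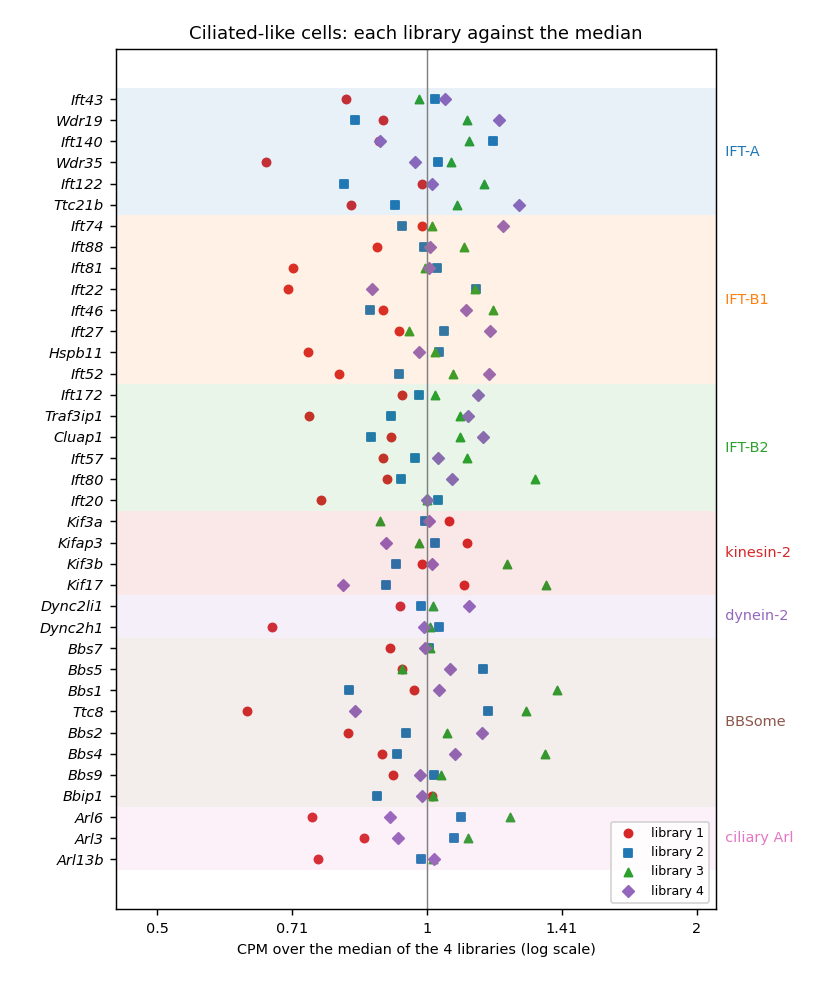
CPM of each of the 37 genes in ciliated-like cells of each library, divided by the median of the 4 libraries, on a log axis; colours and symbols mark libraries 1 to 4. Library 1 is the lowest for 26 genes, and Ttc8 shows the widest spread, with 19.9 CPM in library 1 and 40.7 CPM in library 3.

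Levels also differed between clusters of ciliated-like cells. The deepest cluster (1272 cells, median 7342 UMIs, 5.03% mitochondrial) was set beside the second deepest (1187 cells, 3007 UMIs, 2.93%). None of the 37 genes was at least 2-fold higher in the deeper cluster in every library (8.45% of 9942 genes were), and Ift27, Hspb11, Ift20 and Ift172 were at least 2-fold lower in every library (4.65% were). Kif3a leaned the other way: it read 216, 232, 169.6 and 216 CPM in the deeper and 84.9, 92.8, 103 and 89.05 CPM in the shallower cluster, with a log2 ratio of 0.72 to 1.33. Ift172 read 186, 177, 224 and 249 CPM in the deeper and 583, 516, 629 and 594 CPM in the shallower cluster. Of kinesin-2, 3 of 4 genes were higher in the deeper cluster in all 4 libraries and 0 lower, and of IFT-B1 0 of 8 were higher and 6 lower. IFT-A was split, with 3 of 6 higher and 2 lower. By this rule, which asks for no minimum size, 7 of the 37 genes were higher and 17 lower, against 36.2% and 30.6% of all genes, and no difference between complexes was tested. The median over the 37 genes was -0.20 and over all genes 0.08. These clusters were drawn from the same cells by genes that vary with ciliary genes, and depth and mitochondrial share differ between them, so the values are a description.

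**Figure D5:**
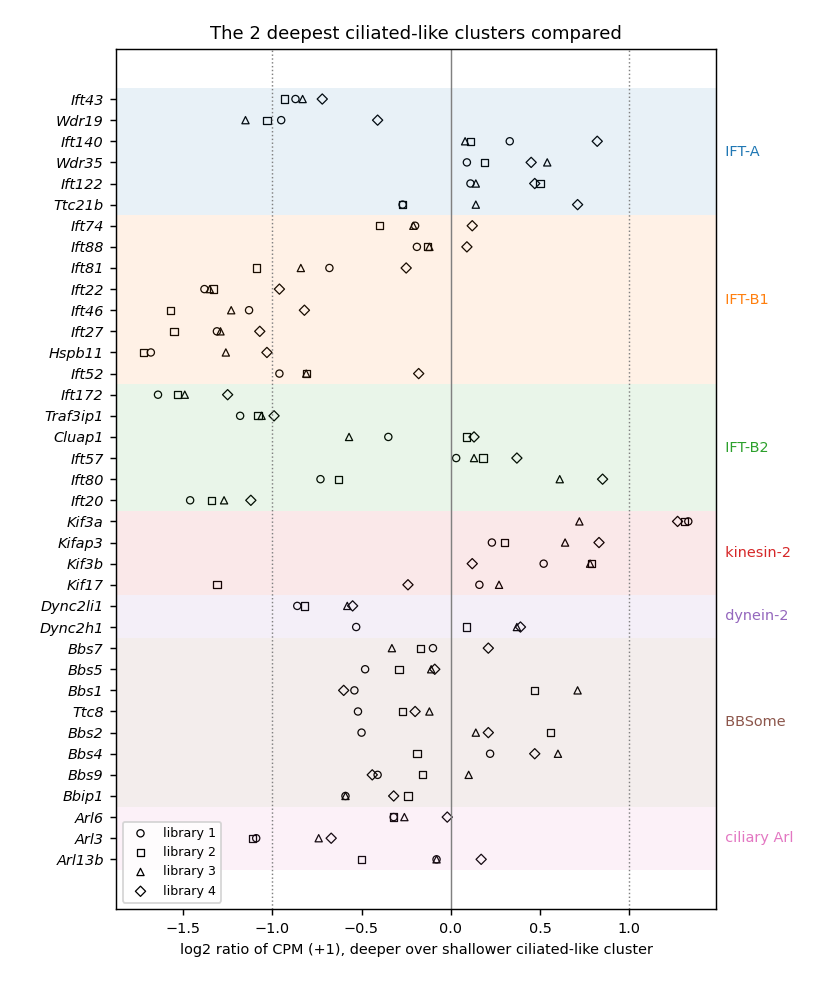
Log2 ratio of CPM (with 1 CPM added) in the deepest over the second deepest ciliated-like cluster for each of the 37 genes, with 1 symbol per library; dotted lines mark 2-fold differences. Kif3a, Kifap3 and Kif3b lie above 0 in all 4 libraries, and Ift27, Hspb11, Ift20 and Ift172 lie below -1 in all 4.

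A small cluster of 110 cells (29, 19, 40 and 22 by library) was led by Ccna1 and held Deup1 and Dync2h1 among its top 10 genes. Deup1 builds the deuterosomes on which new basal bodies form. Pooled over libraries, 4 of 9 deuterosomal markers were at least 2-fold higher there than in ciliated-like cells: Deup1, Mcidas, Cdc20b and Foxn4. Cdc20b rested on 9 UMIs there and Foxn4 on 4. Gmnc went the other way (log2 ratio -1.07, 1 UMI there). Ccno, Plk4, Myb and Hes6 had log2 ratios of 0.86, 0.91, 0.82 and 0.24. The cluster also carried 6 of 8 secretory markers and was therefore not named. Its median depth was 18264.5 UMIs. None of the 37 genes was at least 2-fold higher or lower there than in ciliated-like cells in every library, where 1.94% and 2.43% of 10617 genes were. The median log2 ratio of the 37 genes was -0.26, and that of all genes -0.10. Dync2h1 read 167, 133, 155 and 127 CPM in this cluster and 54.7, 83.9, 82 and 80.9 CPM in ciliated-like cells; as a top gene it helped to describe the cluster, and the difference is no test.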

How the data were processed

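Cells of 4 tracheal libraries were profiled with a 3′ single-cell kit. The authors deposited 1 matrix of raw UMI counts per gene and barcode, written by Cell Ranger 6.0.1 per the file headers. The build was GRCm39 per the submitters' processing notes, with the gene annotation used not given in the sources used here. Barcodes carry only a library number, so no genotype was assigned, and the levels of the mutated genes were not used for that.

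Of 21667 barcodes, the filters (at least 500 UMIs and 300 genes, at most 20% of UMIs mitochondrial) removed 1308, and the 888 highest doublet scores were removed at 0.8% per 1000 cells. Leiden clustering (leidenalg 0.10.2, resolution 1, 15 neighbours, 30 components, 2000 variable genes without the 37 genes) gave 22 clusters. They were named X-like from 22 marker lists by a rule set after the data were seen. A name needed 3 markers, each found in at least 10% of cells and at least 1 (log2) above the clusters' 25th percentile. Clusters holding 75% of the markers of another lineage were called mixed. Clusters led by markers of another class, or shallow without their own among the top 10 genes, stayed unnamed. Free RNA was not subtracted.

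UMIs were summed per library and class and scaled to CPM. Log2 ratios used a pseudocount of 1 CPM. A gene was called where the ratio was at least 2-fold in every library, over genes with at least 50 UMIs in both classes together. Intervals are exact Poisson at 95% and cover counting error only. With 1 library per genotype there was no test. The ratio calls and the comparison with a reference share were run on simulated counts. Filtering, doublet scores, clustering, naming and the comparison between libraries were not.

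The genes and lists were chosen with earlier results of these data known. Values by library were given for the highest and lowest gene of each complex and for uncalled genes. They were also given for genes above the axoneme share in both other classes and genes apart between libraries. From the other train, transition zone and signalling lists the 2 highest and 2 lowest were named, some by median log2 ratio only. The axoneme list gave its highest and lowest gene, and no gene of the immediate early and heat shock list was named. Of those lists, 4 symbols (Ift56, Wdr60, Wdr34 and Tctex1d2) did not match a symbol in the matrix. Alternatives in scaling, pseudocount, count filter, cell weight, depth, class definition, doublets, mitochondrial limit and libraries were run, and 3 were added after seeing the data.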

Additional observations from a re-analysis of the deposited data

How the results depend on the processing

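The counts of genes called kept within 1.5 times of the reported 34 and 36 under every alternative run: 31 to 36 over basal-like and 32 to 37 over secretory-like cells, and no gene changed direction among those called. The median log2 ratio over basal-like cells was 3.06 with TMM scaling, 3.50 and 2.44 with 0.5 and 5 CPM added, 3.67 with cells thinned to 1000 UMIs, 3.46 with cells gated on marker shares, 3.57 with the 37 genes kept in the clustering, 3.44 at resolution 2, 3.54 with doublets kept and 3.55 with the unnamed basal-marker cluster added. Over secretory-like cells it was 3.01 with TMM scaling, 3.24 without the 50 most abundant genes in the totals, 3.98 and 3.08 with 0.5 and 5 CPM added and 3.89 with thinned cells. Thinning left 10 and 17 genes above the axoneme share in basal-like and secretory-like cells in place of 26 and 37. Thinned sums hold fewer UMIs, the share of all genes was not counted there, and the cause was not tested further. With the 11 ciliated markers as reference, chosen after seeing the data, these counts were 25 and 30. The count of genes at least 2-fold apart between libraries, 1 as reported, was 0 with TMM scaling, without the 50 most abundant genes and with gated cells, 3 with thinned cells, and 0 to 1 when each library was left out (0 without library 1 or library 3); the cause was not tested. Single calls that changed were those of Ift20, Kif3b, Kif17, Bbip1, Bbs9 and Ift52, which were lost under at least 1 alternative, and of Kif17, Ttc21b and Arl13b, which were gained under at least 1. Ratios between classes were taken within each library, and with 1 library per genotype no test was run. Depth limits the sparse genes Ttc21b and Kif17 and the basal-like values of the BBSome genes, many of which rest on fewer than 10 UMIs per library.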

Other observations

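The 4 ciliated-like clusters held different summed levels of the 37 genes, pooled over libraries: 3646 CPM in the deepest (1272 cells), 5506 CPM in the second deepest (1187 cells), 4599 CPM in a cluster of 1927 cells with a median of 1470 UMIs, and 5777 CPM in a cluster of 296 cells with a median of 756 UMIs. The 24 axoneme genes summed to 3612, 4683, 4672 and 3220 CPM in the same order. The smallest cluster thus had the highest sum of the 37 genes and the lowest axoneme sum. It held 275744 UMIs in all, and its sum did not describe every gene. Ift43 (903 CPM) and Ift172 (808.7 CPM) were highest there. Lowest there were the kinesin-2 sum (155.9 CPM against 215.1 to 378.8 CPM) and Dync2h1 (3.63 CPM against 68.5 to 90.6 CPM), among others. The smallest cluster had a median mitochondrial share of 0.154%, against 2.93% to 5.03% in the other ciliated-like clusters. A cluster of 1385 cells that carried 11 ciliated and 8 secretory markers, kept out of every class, had a median of 19230 UMIs and held 1549 CPM of the 37 genes and 1364 CPM of the axoneme genes.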
